A study of Homo sapiens with 8 samples.

Results

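SPTBN1 and SPTAN1 encode the spectrin chains βII and αII. In a table of N1-methyladenosine (m1A) positions from neuroblastoma cells, every position annotated to either gene was taken, which gave 32 of 9962 positions: 19 in SPTBN1 on chromosome 2 and 13 in SPTAN1 on chromosome 9. The pair was chosen from this same table for its many positions, so the number of positions, their spacing and their counts are given as descriptions.

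Spectrin chains are long rods of repeated helical bundles. An α and a β chain pair side by side, the pairs join head to head, and the resulting tetramers cross-link short actin filaments into a meshwork under the plasma membrane. Ankyrins tie this meshwork to channels and adhesion molecules, and adducin and protein 4.1 fasten it to actin. In axons βII-spectrin forms a periodic submembrane lattice and has roles in transport along the axon. N1-methyladenosine carries a methyl group on the edge of adenine that pairs with uracil. The enzyme that adds it to tRNA, and to a few mRNA stems of like shape, joins the catalytic subunit TRMT61A with TRMT6.

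The series asked how m1A in RNA differs once TRMT6 is silenced. Per the labels, the cells were transfected with small interfering RNA against TRMT6 (siTRMT6) or were controls, and the labels do not say what the controls received. Each condition has 2 m1A libraries and 2 input libraries. The labels name the line SK-N-AS in some fields and SK-N-BE in others, both established neuroblastoma lines, and do not say whether replicates were separate cultures, so p-values reflect the spread of these libraries alone, and that spread may be technical. The values analysed were 4 columns of reads, taken as the m1A libraries because the table lists m1A positions. Input values were not used here, so methylation cannot be told apart from transcript level, nor fewer cells of a kind from less RNA per cell.

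Over all genes the libraries held 40771 (siTRMT6 1), 13812 (siTRMT6 2), 8655 (control 1) and 46007 (control 2) reads at listed positions. TRMT6 itself had no listed position, so the silencing could not be checked in these reads. Of 11 genes of noradrenergic neuroblastoma cells, 10 had a listed position, with 303 and 282 reads in the siTRMT6 libraries and 123 and 320 in the controls. ISL1 had none. Of 6 mesenchymal genes only VIM and TWIST1 had a listed position, and none of 6 erythroid genes did. These are reads at m1A positions and not expression levels.

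SPTBN1 was listed as often as any gene. Its 19 positions equalled those of DYNC1H1, the heavy chain of cytoplasmic dynein, and no gene had more. SPTAN1, with 13, was among the 9 genes with 13 or more. Per kilobase of transcript up to the last listed position, SPTBN1 had 2.56 positions and SPTAN1 had 1.71, against a median of 2.49 over the 42 genes with at least 10 positions. On that density SPTBN1 stood 21st and SPTAN1 31st of the 42.

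The listed positions of both transcripts ran through the body of the coding sequence. Of the 32 positions, 30 (93.8%) lay in coding sequence and 2 in a 3' UTR, against 65.2% in coding sequence among all 9962 positions. No spectrin position lay in a 5' UTR. Coding positions had a median place, counted from the transcript's start, of 4151 nt in SPTBN1 and 4489 nt in SPTAN1. Over all coding positions the median was 1059 nt. In each case the transcript in which a position lies farthest along was taken. Shorter transcripts cannot hold a coding position that far along. Neither the medians nor the coding shares were compared with those of transcripts of like length.

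The first SPTBN1 position, 54558865, was listed for the transcript ENST00000333896.5 alone, 472 nt from that transcript's start. It lies 482 nt past the downstream of the SPTBN1 starts in RefSeq (GRCh38.p14). The 2 most distal positions, 54664615 and 54668627, were not listed for that transcript, and the other 16 were listed for all 3 SPTBN1 transcripts in the table. All 13 SPTAN1 positions were listed for all 3 SPTAN1 transcripts in the table. Places below are given in ENST00000356805.5 for SPTBN1 and ENST00000372739.3 for SPTAN1.

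In SPTBN1 the 18 positions placed in that transcript ran from nt 530 to nt 7434 and fell in at least 13 exons, as the difference between genomic and transcript coordinates shows. Neighbours were 21 to 901 nt apart, with a median of 446 nt. In SPTAN1 the positions ran from nt 1102 to nt 7622 over at least 10 exons, and neighbours were 9 to 1752 nt apart, with a median of 250 nt. The widest SPTAN1 gaps, 1712 and 1752 nt, lay upstream of positions with control 2 reads.

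**Figure D1:**
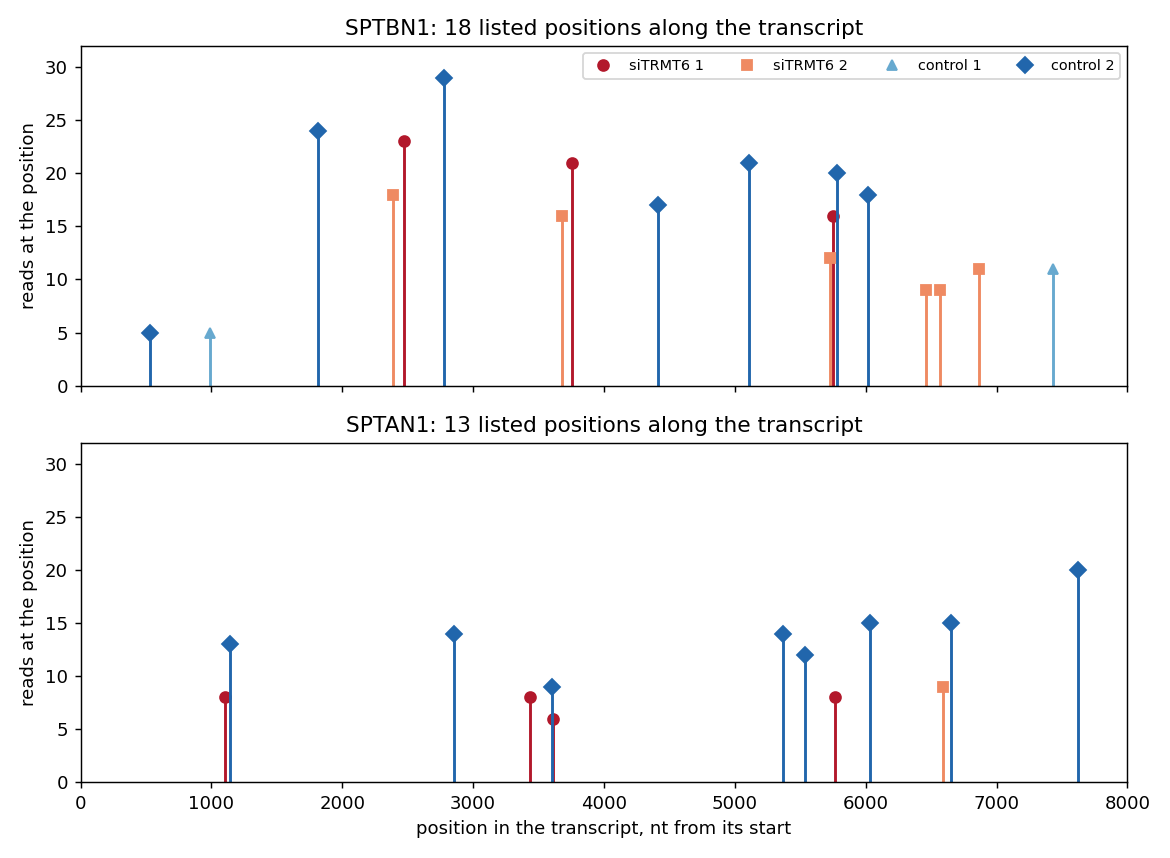
Reads at each listed position of SPTBN1 (upper panel, 18 of 19 positions) and SPTAN1 (lower panel, 13 positions) against the place in the transcript in nt from its start; each stem is 1 position and its colour and marker give the library. In SPTBN1 no siTRMT6 stem stands in the first 2000 nt, and the 3 stems from nt 6464 to nt 6864 all belong to siTRMT6 2.

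Each of the 32 positions had reads in exactly 1 library, as had 98.6% of all positions. SPTBN1 positions carried 5 to 29 reads with a median of 16, and SPTAN1 positions 6 to 20 with a median of 12, against a median of 9 over all positions. Of the spectrin positions, 4 had 5 or 6 reads. The smallest count that the table lists is 5 for a control library alone and 6 for a siTRMT6 library alone. Of the 4, only 54558865, with 6 reads in control 2, lay above the smallest count for its condition.

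Control 2 held the highest SPTBN1 counts. Its 8 positions had 29 reads at 54629628 (nt 2775), 24 at 54626122 (nt 1813), 21 at 54646438 (nt 5110), 20 at 54649912 (nt 5781), 18 at 54653768 (nt 6018), 17 at 54644450 (nt 4414), 6 at 54558865 and 5 at 54599192 (nt 530). Control 1 had 5 reads at 54618134 (nt 985) and 11 at 54668627 (nt 7434). The position at nt 7434 was the only SPTBN1 position in the 3' UTR.

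The siTRMT6 libraries had reads at other listed bases of SPTBN1. The 3 positions of siTRMT6 1 had 23 reads at 54629326 (nt 2473), 21 at 54631523 (nt 3757) and 16 at 54649880 (nt 5749). The 6 positions of siTRMT6 2 had 18 reads at 54629244 (nt 2391), 16 at 54631442 (nt 3676), 12 at 54649859 (nt 5728), 11 at 54664615 (nt 6864), and 9 each at 54657986 (nt 6464) and 54659194 (nt 6565). No listed base was shared between libraries. How positions were called is not known, and whether neighbouring bases of different libraries stand for a single site was not tested.

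Counted in windows of the transcript, the condition with more SPTBN1 reads differed, and control 2 held most of the control reads. From nt 1 to nt 2000 the siTRMT6 libraries had 0 reads and the controls 34, of which 5 were in control 1 and 29 in control 2. From nt 2001 to nt 4000 the siTRMT6 libraries had 78 reads and the controls 29, and from nt 4001 to nt 6000 the siTRMT6 libraries had 28 and the controls 58. Control 1 had 0 reads in both of these windows, so without control 2 they would hold 78 and 28 siTRMT6 reads against 0. From nt 6001 to nt 8000 both conditions had 29 reads, but all 29 siTRMT6 reads came from siTRMT6 2, while control 1 had 11 and control 2 had 18.

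SPTAN1 had its highest counts in control 2 throughout the transcript. The control 2 counts were 13 at 128577452 (nt 1141), 14 at 128585930 (nt 2853), 9 at 128598479 (nt 3604), 14 at 128615738 (nt 5365), 12 at 128617708 (nt 5536), 15 at 128624421 (nt 6036), 15 at 128626653 (nt 6652) and 20 at 128633412 (nt 7622, 3' UTR). Control 1 had no listed SPTAN1 position. siTRMT6 1 had 8 reads at each of 128577413 (nt 1102), 128594287 (nt 3438) and 128618924 (nt 5764) and 6 at 128598488 (nt 3613), and siTRMT6 2 had 9 at 128626595 (nt 6594). The highest siTRMT6 count in SPTAN1 was 9, the same as the lowest control 2 count.

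Summed over the gene, SPTBN1 had 60 reads in siTRMT6 1 and 75 in siTRMT6 2, against 16 in control 1 and 140 in control 2. The ranges of the conditions overlapped. Because the libraries differ in size, these sums were set against each library's listed reads, with Wilson 95% intervals that cover counting error only. The SPTBN1 share was 0.147% (0.114 to 0.189) in siTRMT6 1 and 0.543% (0.433 to 0.680) in siTRMT6 2, against 0.185% (0.114 to 0.300) in control 1 and 0.304% (0.258 to 0.359) in control 2. The replicates of siTRMT6 therefore lay at both ends of the order, and their mean of 0.345% ± 0.280 (SD, n = 2) differed from the control mean of 0.245% ± 0.0845 (SD, n = 2) by less than their own spread.

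SPTAN1 had 30 reads in siTRMT6 1 and 9 in siTRMT6 2, against 0 in control 1 and 112 in control 2. Its share was 0.0736% (Wilson interval 0.0515 to 0.105) in siTRMT6 1 and 0.0652% (0.0343 to 0.124) in siTRMT6 2, against 0 in control 1 and 0.243% (0.202 to 0.293) in control 2. If a listed 0 means no reads, the 0 in control 1 allows a share of up to 0.0347% by the limit of 3 counts in its 8655 listed reads, and of up to 0.0444% by the Wilson interval. The siTRMT6 mean was 0.0694% ± 0.00595 and the control mean 0.122% ± 0.172 (SD, n = 2 each), and both siTRMT6 values lay between the control values. The SPTBN1 and SPTAN1 chains pair in the cell, but the order of the libraries differed between their transcripts: siTRMT6 2 had the highest share for SPTBN1 and control 2 for SPTAN1.

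**Figure D2:**
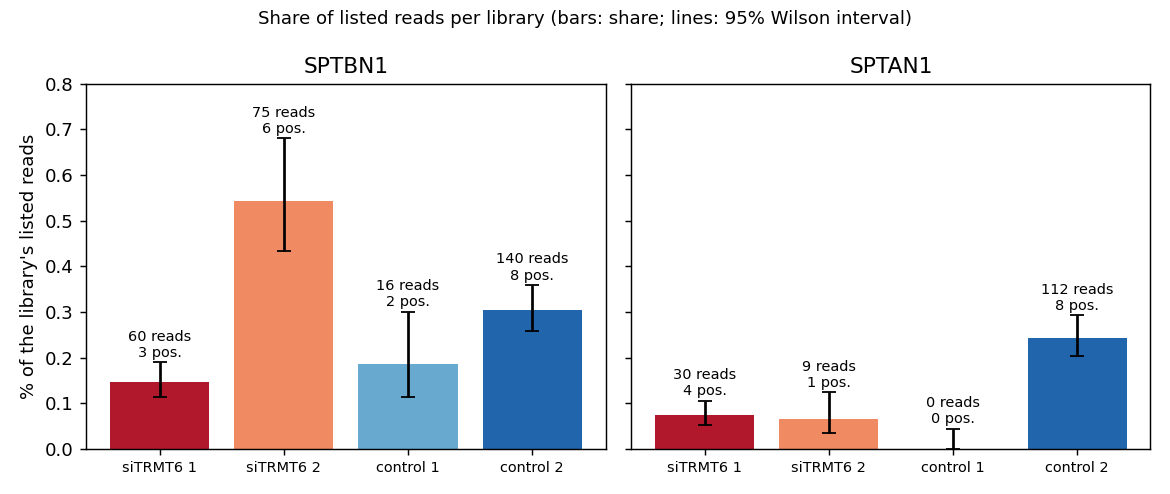
Reads at SPTBN1 (left) and SPTAN1 (right) positions as a percentage of all listed reads of each library; bars are the shares, vertical lines the 95% Wilson intervals for counting error, and the labels give reads and positions. SPTBN1 was highest in siTRMT6 2 (0.543%) and SPTAN1 in control 2 (0.243%), with no listed SPTAN1 reads in control 1.

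The authors' deposited table gave 14 of the 32 spectrin positions as higher and 18 as lower in siTRMT6, all at an adjusted p below 0.05. Of all positions in the table, 49.6% were called higher and 50.4% lower. Together these were 9961 of 9962, or 100% after rounding, so a call does not set a listed position apart. Among the spectrins 9 SPTBN1 and 5 SPTAN1 positions were higher, and 10 and 8 were lower. The authors' deposited table gave log2 fold changes from -6.04 at 54629628 to 5.34 at 54629326 in SPTBN1, bases 302 nt apart in the same exon, and from -5.51 to 3.99 in SPTAN1. These values follow from pooled counts with a sum of 0 replaced by 0.5, and the adjusted p-values, from 5.45e-07 to 0.0376, take no account of the spread between replicates.

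When the 4 libraries were treated as replicates, neither gene passed. In edgeR's quasi-likelihood test of gene sums the log2 value of siTRMT6 over control was 0.36 for SPTBN1 (approximate SE 1.24) and -1.17 for SPTAN1 (approximate SE 2.41), with an adjusted p of 0.9998 for both. The median over all genes tested was 0.24. The test called 0 of 975 genes, a background of 0%, with 126 below 0.05 before adjustment, and DESeq2 called 1 gene, neither spectrin, with 45 unadjusted. The SPTBN1 value turned to -0.21 with equal library sizes, to -0.33 without siTRMT6 2 and to -0.39 without control 1, and was 2.06 without control 2. The SPTAN1 value was -2.13 without control 1 and 7.12 without control 2, the library that held all its control reads. A p that misses the threshold does not show that the transcripts carried equal m1A, and the table had been selected on the same contrast. No spectrin position could enter the test of single positions, which called 22 of 34 tested (64.7%), since its filter kept positions with reads in at least 2 libraries.

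Neighbouring bases were then summed where they lay within 200 nt on the genome. The 32 positions formed 25 regions: 19 of a single position and 6 of several. Both conditions were present in 1 of 15 SPTBN1 regions and 3 of 10 SPTAN1 regions (16% of the 25), against 17.2% of the 8233 regions over all genes. Since each base had reads in 1 library, a sum over both conditions lies nearer to 0 on the log2 scale than its bases by construction.

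In SPTBN1 the region 54649859 to 54649912 held 3 libraries within 53 nt: 16 reads in siTRMT6 1, 12 in siTRMT6 2 and 20 in control 2. Its summed log2 of siTRMT6 over control was 0.30 on the authors' scale and 0.49 when scaled by listed reads, and the authors' deposited table gave 4.82, 4.40 and -5.51 for its single bases. The edgeR value of the region was 0.91 (adjusted p = 0.9993), which fell to -0.089 without control 1 and was 6.89 without control 2.

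The SPTAN1 regions with both conditions were 128577413 to 128577452, 128598479 to 128598488 and 128626595 to 128626653. The first had 8 reads in siTRMT6 1 and 13 in control 2, the second 6 in siTRMT6 1 and 9 in control 2, and the third 9 in siTRMT6 2 and 15 in control 2. Scaled by listed reads their log2 values were -0.70, -0.58 and -0.73, and on the authors' scale -0.89, -0.77 and -0.92. All 3 set a single siTRMT6 library against control 2.

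A pair of SPTBN1 regions had reads in both siTRMT6 libraries and no listed control position. The first, 54629244 to 54629326, had 23 reads in siTRMT6 1 and 18 in siTRMT6 2, 82 nt apart. The second, 54631442 to 54631523, had 21 and 16 reads, 81 nt apart. With a floor of 3 counts over the controls these are at least 13.7-fold and at least 12.4-fold higher in siTRMT6. This holds only if a listed 0 means no reads, which is not known. By the same floor and proviso, SPTBN1 regions with control 2 reads alone were at least 9.65-fold lower (54629628) and at least 7.99-fold lower (54626122). Regions of both kinds come from positions selected on this contrast. Over all genes 154 of 8233 regions (1.87%) had both controls and no siTRMT6 library, and 0 of the 25 spectrin regions did. Control 1 had reads at 819 listed positions and control 2 at 4269. Both siTRMT6 libraries and no control were found in 306 of the 8233 regions (3.72%), in 2 of 15 SPTBN1 regions and in 0 of 10 SPTAN1 regions.

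Neither region passed in edgeR's quasi-likelihood test of joined regions (adjusted p = 0.0627 and 0.0607), which called 0 of 511 regions, a background of 0%, with 129 at an unadjusted p under 0.05. DESeq2 called 0, with 12 unadjusted, and gave both regions an adjusted p of 0.663. Over 11 other settings of the fit to these same regions the adjusted p ranged from 0.079 to 1. Joined within 100 nt the adjusted p in edgeR was 0.067 for the first and 0.0646 for the second, and joined along the transcript it was 0.0898 and 0.0827. A control 2 position with 29 reads, the highest count of either gene, lies 302 nt downstream of the first region in the same exon. Joined within 500 nt, that region held 23 and 18 siTRMT6 reads against 0 and 29 control reads, with a log2 of 0.50 scaled by listed reads and an edgeR value of 0.94 (approximate SE 2.60, adjusted p = 0.99997). The second region stayed apart at 500 nt (edgeR adjusted p = 0.0636): the nearest control positions in the transcript lay 901 nt upstream and 657 nt downstream, both in control 2.

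**Figure D3:**
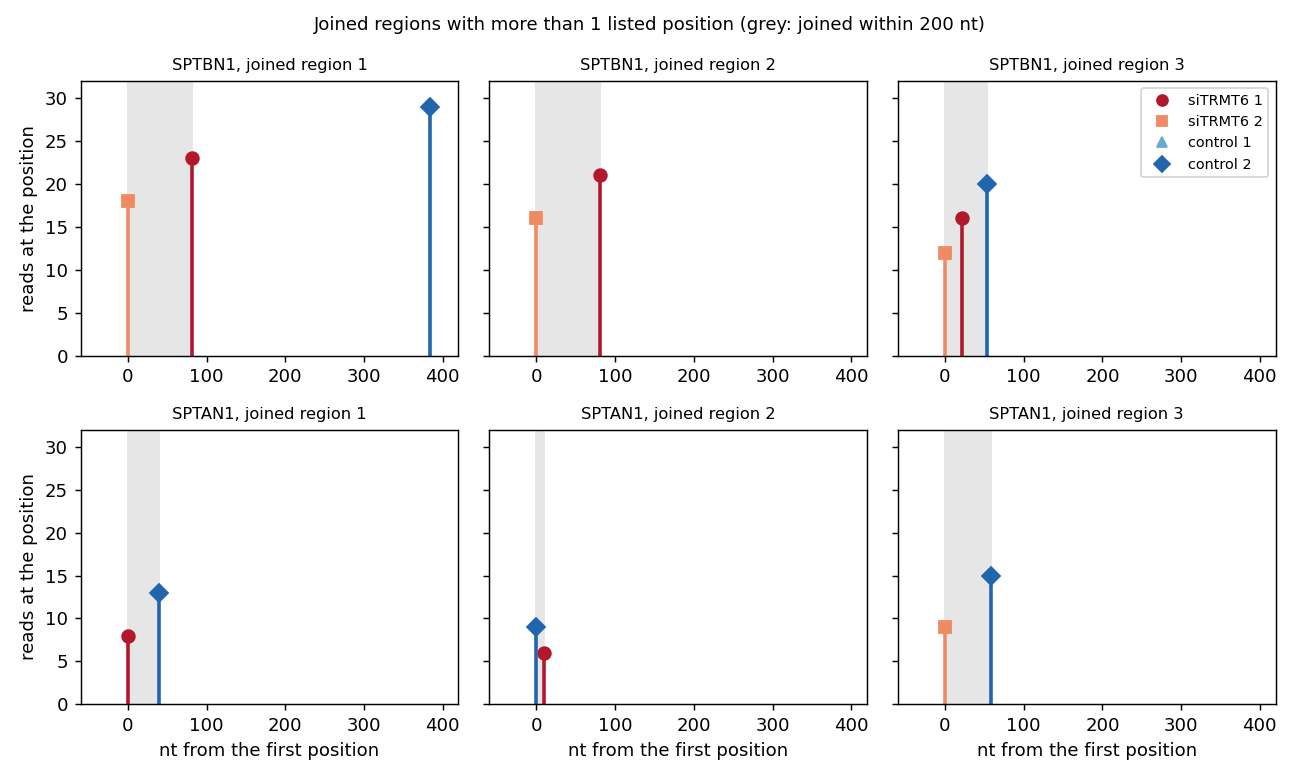
Reads at the positions of the 6 joined regions with more than 1 position, 3 in SPTBN1 (upper row) and 3 in SPTAN1 (lower row), against the distance in nt from the region's first position; grey marks the joined stretch and stems outside it are neighbouring positions. The first and second SPTBN1 regions hold siTRMT6 reads alone, and a control 2 stem of 29 reads stands 302 nt past the first.

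Distance along the spliced transcript gave another picture than distance on the genome. The SPTBN1 positions 54657986 and 54659194 are 1208 nt apart on the genome and 101 nt apart in the mRNA, and both had 9 reads in siTRMT6 2. Likewise the SPTAN1 positions 128615738 and 128617708 are 1970 nt apart on the genome and 171 nt in the mRNA, with 14 and 12 reads in control 2. No listed positions of a single library lay closer than 317 nt on the genome in any gene. By that spacing alone, none of the 2081 neighbouring pairs within 200 nt on the genome could share a library. Of 591 pairs within 200 nt in the transcript but over 200 nt on the genome, 183 (31.0%) did share a library. A library could thus have positions on both sides of an intron that are neighbours in the mRNA.

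Joining along the transcript moved a SPTAN1 value past 0. The 8 reads of siTRMT6 1 at 128594287 lie 166 nt upstream of the region 128598479 to 128598488 in the mRNA. With them the region had 14 siTRMT6 1 reads and 9 control 2 reads, a log2 of 0.64 scaled by listed reads, in place of -0.58.

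Other genes of the membrane skeleton had fewer positions than SPTBN1 and SPTAN1, 8 at most (TPM4) on the list described here. The list was chosen with earlier results of these data known. In RefSeq 20.7% of the 20052 protein-coding genes had a listed position, counting genes whether or not these cells express them. Enrichment of the list was not tested. Of its 50 genes of spectrin, ankyrin, adducin, protein 4.1, actin filament and partner families, 28 (56%) had a listed position. Together they had 84 positions, 42 higher and 42 lower in the authors' deposited table, with 327 and 142 reads in the siTRMT6 libraries and 35 and 434 in the controls. In edgeR 9 of the 50 could be tested and 0 passed (0 at an unadjusted p under 0.05), with a median log2 of 0.32 against 0.24 over all 975 genes.

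Of the other spectrins, SPTBN4, the βIV chain of axon initial segments and nodes, had 14 reads in siTRMT6 1 and 22 in control 2 over 5 positions. SPTB, the β chain of red cells, and SPTBN5 had no listed position. ADD1, an adducin that caps actin filaments, had 24 and 7 reads in siTRMT6 libraries 1 and 2 and 40 in control 2. ANK2, an ankyrin of axons and heart, had 7 reads in siTRMT6 1, 12 in control 1 and 8 in control 2.

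The protein 4.1 family and dematin were listed in control 2 alone: EPB41 with 23 reads and EPB41L1, EPB41L2, EPB41L5 and DMTN with 5 to 11 each. Their 8 positions were all lower in the authors' deposited table, as were 50.4% of all positions. Control 2 had reads at 4269 of the 9962 listed positions. EPB41L3, EPB41L4A and EPB41L4B had no listed position. Each of these genes rests on a single library.

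The membrane partners differed among themselves. NCAM1, a neural cell adhesion molecule, had 37 and 12 in the siTRMT6 libraries and 45 in control 2 over 7 positions. L1CAM, an adhesion molecule that binds ankyrin, had 45 reads in siTRMT6 2 alone, and the sodium channel SCN8A had 10 in control 2 alone. Of the proteins with spectrin repeats, PLEC, the cytoskeletal linker plectin, had 39 reads in siTRMT6 1 and 46 in control 2. ACTN4, an actinin that cross-links actin, had 24 and 14 reads in the siTRMT6 libraries and 38 in control 2.

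Among the actin filament genes, TPM4, a tropomyosin, had 73 and 12 reads in the siTRMT6 libraries and 24 in control 2 (edgeR log2 2.03, adjusted p = 0.9998). TPM1, another tropomyosin, had reads in all 4 libraries: 23 and 12 in siTRMT6, and 13 and 17 in the controls. TMOD1, a tropomodulin that caps actin filaments, had 19 and 7 reads in siTRMT6 and 27 in control 2. CAPN2, a subunit of a calpain that cuts spectrin, also had reads in all libraries, 17 and 6 in siTRMT6 and 5 and 7 in the controls. ACTG1 has processed pseudogenes, so its 20 reads in siTRMT6 2 and 33 in control 2 are uncertain.

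**Figure D4:**
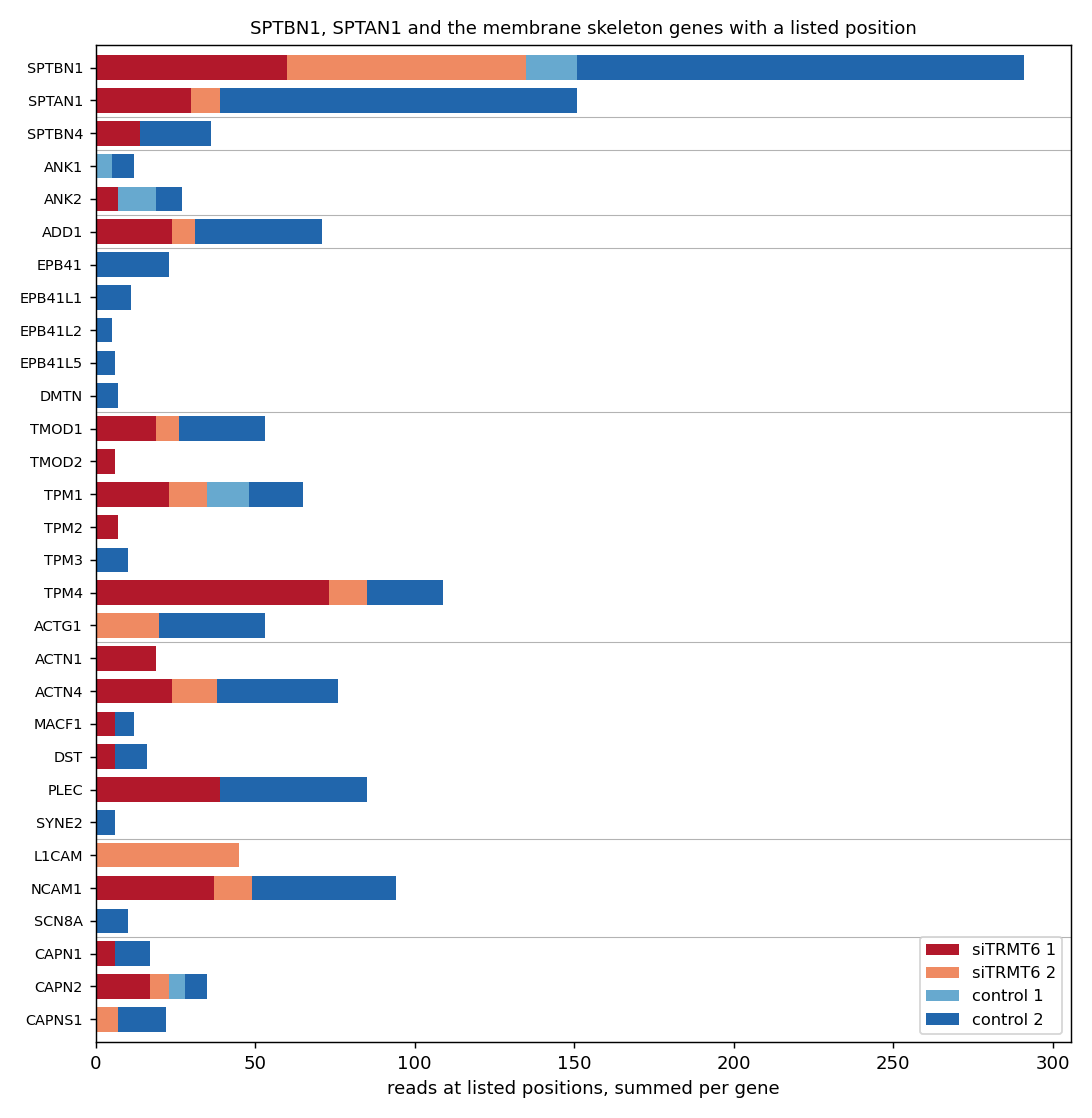
Reads at listed positions summed per gene, split by library, for SPTBN1 and SPTAN1 (top) and the 28 listed membrane skeleton genes with a listed position, with lines between the gene families. SPTBN1 has 291 reads and SPTAN1 151, and the protein 4.1 family and dematin bars hold control 2 reads alone.

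The genes most like each spectrin in how their reads divide among the 4 libraries were found among 409 other genes with at least 5 positions, by Bray-Curtis distance between shares (0 for the same division). For SPTBN1 they were MAP1S, a microtubule-binding protein (distance 0.0583, with 14 and 20 reads in siTRMT6, and 0 and 35 in the controls), MYBL2, a cell cycle transcription factor (0.063), and DVL3, a Wnt signal protein (0.0667). For SPTAN1 they were CDK5RAP3 (0.0365, with 12 and 7 reads in siTRMT6, and 0 and 55 in the controls), the hexokinase HK1 (0.0495) and the glycosylation enzyme subunit RPN2 (0.0596). The spectrins were 0.261 apart, against a median of 0.292 from SPTBN1 and 0.349 from SPTAN1 to the 409 genes. With 4 values a gene, this is a description of how libraries share the reads.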

How the data were processed

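The deposited table holds 25539 lines, 1 for each position and transcript. Per the submitters' processing notes, FastQC 0.11.3, STAR and the build hg38 were used. How positions were called, counted and tested is not given in the sources used here. In 4 columns the authors gave counts, per the file headers, taken as m1A reads. The authors also gave a log2 fold change and, per the file headers, its p-value before and after adjustment. The authors' log2 fold change equals the ratio of summed counts divided by 1.14, within 0.001 at every position, and no deposited p-value exceeds 0.0478, which shows a filter on the test. A deposited 0 may stand for no reads or for no call. Totals at listed positions are not the sequencing depth. Positions are given from 1: the listed ones count from 0, as 6 of 6 mitochondrial positions matched to RefSeq genes showed.

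The members and gene lists were chosen with earlier results of these data known. Named genes were the 2 members, the listed pathway genes with most reads, and the 3 genes nearest each member by Bray-Curtis distance. SPTBN4, ANK2, CAPN2, SCN8A and the protein 4.1 family, with fewer reads, were named after their values were seen. Some genes of the lists are not reported here.

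Counts of positions, genes and regions joined within 200 nt were tested by the quasi-likelihood test of edgeR 4.0.16 (R 4.3.3), after filterByExpr at a minimum count of 10 and TMM scaling, with Benjamini-Hochberg adjustment at 0.05. The approximate SE is the log2 value over the square root of its F. The test of gene sums was run on simulated counts that spread each gene over all libraries in proportion to their totals. In the data most positions had reads in a single library, so the simulation does not show how the test performs here. Alternatives were DESeq2 1.42.0, other scalings, no filter, a replicate block, other join distances and leaving out each library. A joined region takes positions of the same strand. Sequences around the positions were not used here.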

Additional observations from a re-analysis of the deposited data

How the results depend on the processing

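With equal library sizes the SPTBN1 gene sum reversed to -0.21, and leaving out a library moved it between -0.39 and 2.06. The SPTAN1 gene sum reversed to 1.37 with the replicate block and to 1.24 with the crossed replicate block, and leaving out a library moved it between -2.13 and 7.12. No spectrin value passed 0.05 under any of these. The called positions, of which no spectrin position was part, numbered 14 with library sizes alone, and 0 without the filter, with the replicate block, with the crossed block, with DESeq2 and when any library was left out. Called genes numbered 1 with the crossed replicate block and 1 with DESeq2, and 0 without each library in turn. Called regions stayed at 0 under all alternatives run, join distances of 100 and 500 nt and joining along the transcript included. In edgeR, scaling by DESeq2-type size factors (RLE) could not be had for single positions. The DESeq2 test itself, which took its size factors another way, did run on them. Why results moved between settings was not tested. Each library's log2 gene sums were taken as deviations from the mean of its condition. These deviations correlated at -0.108 between control 1 and siTRMT6 1 over 975 genes. The crossed pairing was therefore added after seeing the data, as was joining along the transcript. The labels do not tie numbers to a shared culture. Equal library sizes moved the median log2 of all genes from 0.24 to 0.096. Each condition had 2 libraries with unequal listed reads, and each library had a median of 8 or 9 reads a position. Small changes could therefore go undetected, and large ones could be missed. How large a change the tests could detect was not tested. SPTBN1 regions with edgeR log2 values of 7.54 and 7.39 did not pass. Those values rest on listed control counts of 0, which may stand for no call, at positions selected on this contrast.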

Other observations

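Where the siTRMT6 libraries had neighbouring SPTBN1 positions, the siTRMT6 2 position lay on the 5' side of the siTRMT6 1 position in 3 of 3 pairs, by 82, 81 and 21 nt. Over all genes this order held in 219 of 339 such pairs within 200 nt (64.6%). The siTRMT6 2 position was also 5' of the control 2 position in 192 of 275 pairs (69.8%), the SPTAN1 pair at 128626595 and 128626653 among them, whereas siTRMT6 1 lay 5' of control 2 in 495 of 963 pairs (51.4%).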
